A study of Danio rerio with 13 samples.

Results

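The genes described here belong to the bone morphogenetic protein (BMP) and transforming growth factor-beta (TGF-beta) pathways of the zebrafish. They were chosen by gene name alone, as BMP, GDF, TGF-beta and activin ligands, their secreted antagonists, their receptors, the Smad proteins, the Id genes and the latent TGF-beta binding proteins. The rule found 88 entries under 84 names among the 27911 genes of the table, since *id1*, *grem1a*, *ltbp1* and *bmpr1bb* have more than 1 entry. Expression is given as RPKM, read numbers scaled to transcript length and sequencing depth. A mean of at least 1 RPKM over the double-positive libraries was reached by 60 of the 88 entries (68.2%) and by 40.8% of all genes.

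The study examined how Edn1, a secreted ligand of the lower face, and Jagged-Notch signaling pattern neural crest-derived cells (NCCs) of the pharyngeal arches, the embryonic source of the jaw. All embryos carried the transgenes *sox10*:DsRed, which marks NCCs and the ear, and *fli1a*:EGFP, which marks arch NCCs, blood vessels and macrophages. Cells positive for both were sorted as arch NCCs in 11 libraries, and cells positive for only 1 transgene gave the other 2 libraries. Each library came from pooled embryos.

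The perturbed libraries, all at 36 hours post-fertilization (hpf), were *edn1*-/- mutants picked by the shape of their arches, genotyped *jag1b*-/- mutants, wild types treated with the gamma-secretase inhibitor DBZ at 10 μM from 24 to 36 hpf, *hsp70I*:Gal4; *UAS*:Edn1 embryos that overexpress Edn1, and *hsp70I*:Gal4; *UAS*:NICD embryos that overexpress the Notch intracellular domain. The reference libraries were untreated wild types at 20, 28 and 36 hpf, genotyped *jag1b*+/+ siblings at 36 hpf, and *hsp70I*:Gal4 and *UAS*:Edn1 single transgenics at 36 hpf. Both overexpressing lines and both single transgenics had a heat shock of 40°C between 20 and 24 hpf, and the *hsp70I* promoter is not restricted to NCCs. Embryos for 36 hpf libraries were kept at 22°C after 27 hpf, so that age and this slower growth cannot be told apart. The single-positive libraries are wild types at 36 hpf.

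BMP and TGF-beta ligands are secreted dimers that bring together type I and type II receptors at the cell surface. The receptors phosphorylate Smads, with Smad1, Smad5 and Smad9 on the BMP side and Smad2 and Smad3 on the TGF-beta and activin side, and the Smads then regulate genes in the nucleus. Noggins, Gremlins and Follistatins hold ligands in the extracellular space, and the inhibitory Smads act inside the cell. In the arches, BMP signaling is known as a ventral signal that acts beside Edn1. The study describes the BMP antagonist Gremlin2 (gene *grem2b* here) as raised by Jagged-Notch and Edn1 signaling in the intermediate domain of the arches.

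Each condition had 1 library, so no difference has a replicate check and no test was run. A gene was called when it differed at least 1.5-fold from its own control. A call was further held against the range of the 4 control double-positive libraries at 36 hpf (wild types, *jag1b*+/+ siblings, *hsp70I*:Gal4 and *UAS*:Edn1), and counts outside this range are of called genes. The pathway genes varied among these controls: the highest control was at least 1.5-fold above the lowest for 69.5% of 59 members, against 58.8% of 11386 genes, with a median ratio of 1.79 for members and 1.59 for all genes. Relative sequencing depth, set to 1 in wild types at 36 hpf, ran between 0.687 in *edn1* mutants and 1.23 in *hsp70I*:Gal4 controls. Arch NCC markers summed to at least 273 RPKM in every double-positive library, and of the endothelial markers only *egfl7* and *kdrl* exceeded 5 RPKM there. The wild-type 36 hpf library had the highest summed muscle and heart markers of the double-positive libraries (325 RPKM, against 5.77 to 95.5 RPKM in the other 3 controls). Erythroid markers summed to 1213 RPKM in *hsp70I*:Gal4, the control of both overexpression comparisons. They summed to 118 RPKM in wild types, 265 in siblings and 157 in *UAS*:Edn1. In bulk libraries, fewer cells of a type and less RNA per cell cannot be told apart.

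The most abundant member in arch NCCs was the Id gene *id1* (ENSDARG00000040764), a target of BMP signaling that encodes an inhibitor of basic helix-loop-helix factors. In the 4 control libraries it had 390 RPKM (wild types), 480 (*jag1b*+/+ siblings), 392 (*hsp70I*:Gal4) and 497 (*UAS*:Edn1). Next in wild types at 36 hpf came *fstl1b*, a secreted follistatin-like protein, at 129 RPKM and the antagonist *grem2b* at 117 RPKM. In that library, 22 members reached 10 RPKM and 49 reached 3 RPKM.

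The abundant ligands were of different subgroups. The BMP subgroup was led in wild types at 36 hpf by *gdf10a* (25.9 RPKM), *bmp5* (25.8 RPKM) and *bmp3* (20.1 RPKM), and the TGF-beta and activin subgroup by *tgfb3* (30.1 RPKM). The order of the first 3 was not stable across controls, since *bmp5* had 43.0 and 49.7 RPKM in the heat-shocked controls, above *gdf10a* (26.4 and 35.5 RPKM). In wild types at 36 hpf the receptors were led by the BMP type I receptors *bmpr1ab* (27.6 RPKM) and *bmpr1ba* (25.3 RPKM). The Smads were led by the inhibitory *smad6b* (43.0 RPKM) and the BMP-side *smad5* (27 RPKM). The receptor order was not stable either. In siblings, *hsp70I*:Gal4 and *UAS*:Edn1 controls *bmpr1ba* led (31.1, 22.2 and 27.9 RPKM), with *bmpr1ab* at 21.6, 14.7 and 23.2 RPKM.

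**Figure D1:**
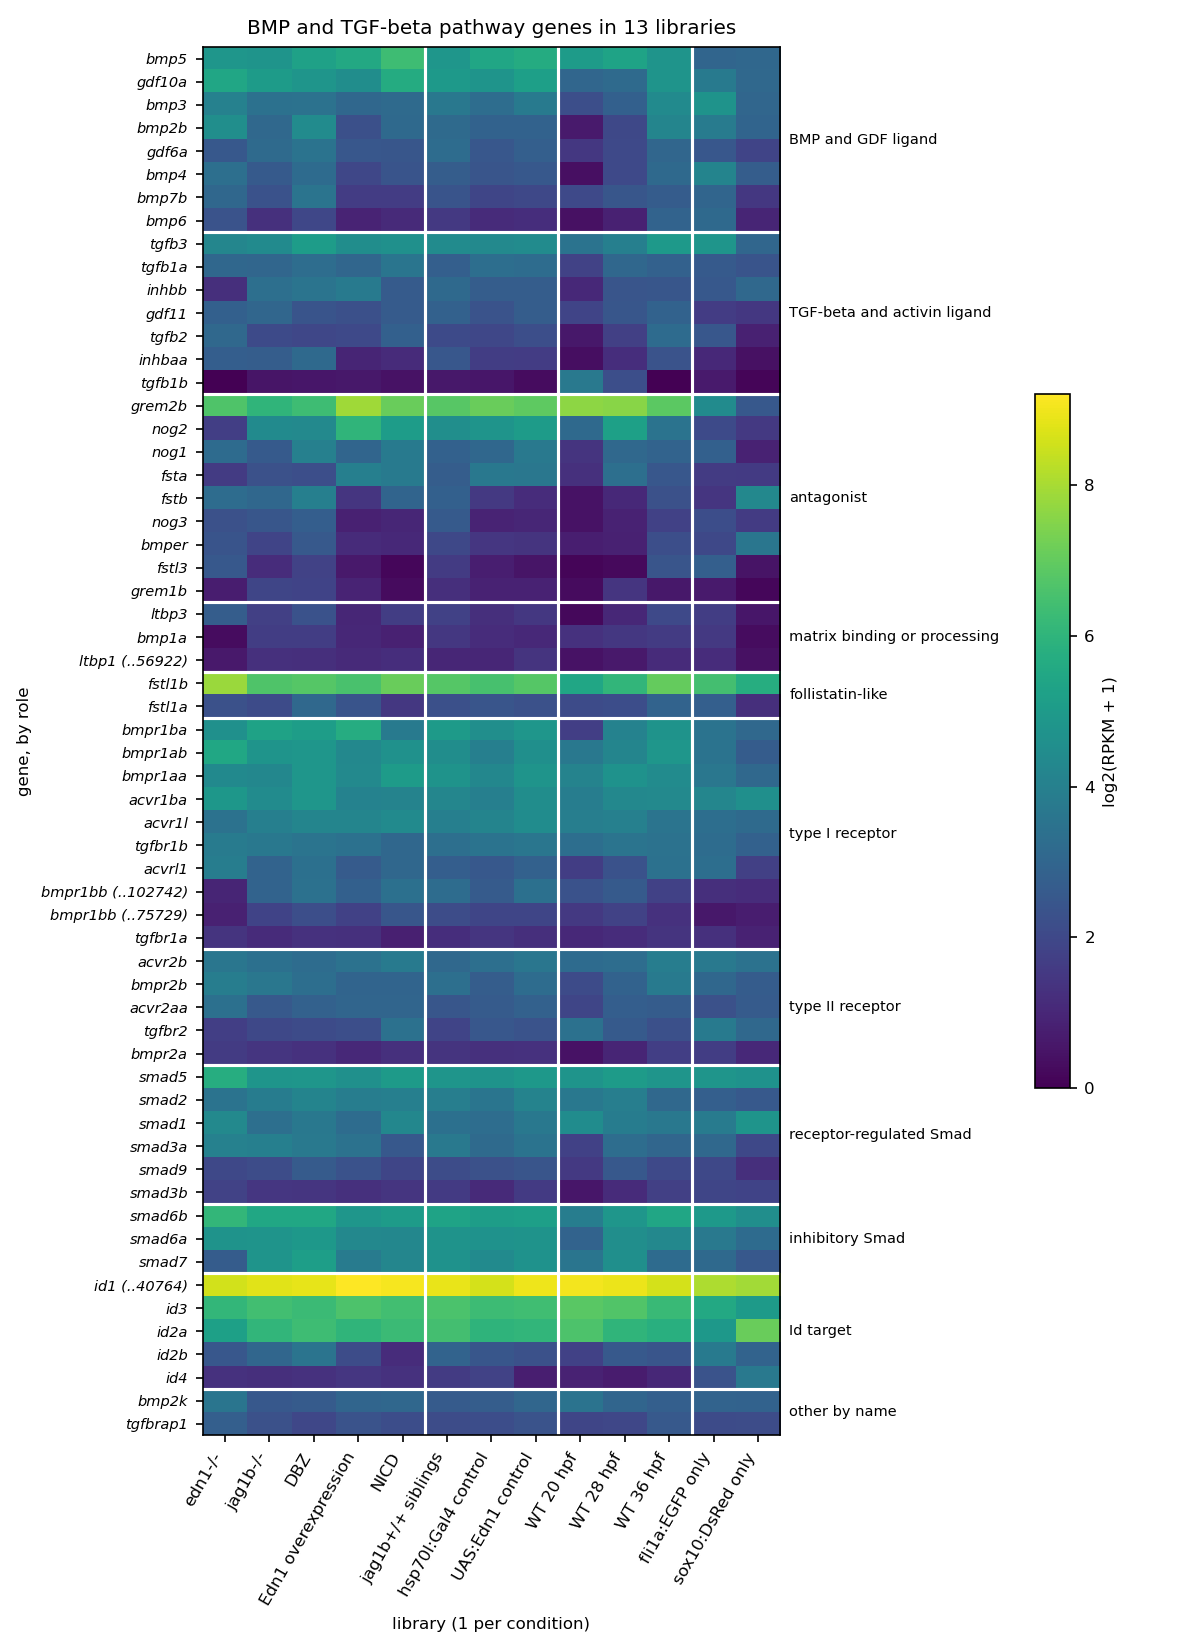
Log2(RPKM + 1) of the 60 members with a mean of at least 1 RPKM in double-positive cells (rows, by role) in the 13 libraries (columns, 1 library each), with perturbed libraries at the left. *id1* was the brightest row in every double-positive library (382 to 588 RPKM), and the rows of *bmp2b*, *bmp4* and *inhbaa* were darkest at 20 hpf.

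The other 28 entries fell under the mean of 1 RPKM, and 23 of the 88 never reached 1 RPKM in any double-positive library. They include the ligands *bmp10*, *bmp15*, *bmp16*, *bmp2a*, *bmp7a*, *bmp8a*, *gdf2*, *gdf3*, *gdf5*, *gdf6b*, *gdf7*, *gdf9*, *gdf10b*, *inhbab* and *tgfb2l*. The antagonists *chrdl2*, *grem2a*, *nog5* and both *grem1a* entries were also below it, as were *fstl4*, *fstl5*, *tgfbr3*, *bmp1b*, *acvr1bb*, *acvr2ab* and the second entries of *id1* and *ltbp1*. *nog5* was listed at 0 in every library except the wild-type 20 hpf library (0.0313 RPKM). Members with 2 entries under 1 name may divide reads between the entries, so their single values are uncertain. *bmp2k*, a kinase, and *tgfbrap1*, a receptor-associated protein, are members by name only.

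To ask which members mark arch NCCs, double-positive wild-type cells at 36 hpf were set against each single-positive population. The antagonists *grem2b* and *nog2*, the type I receptors with *bmpr1* names and the activin subunit *inhbaa* were enriched in double-positive cells over both. The other type I receptors tested, such as *acvr1l* and *acvrl1*, were not. Against *sox10*:DsRed-only cells, 41 of 61 members were higher and 9 were lower, where 39.2% of all genes were called, 22.8% higher and 16.4% lower. Against *fli1a*:EGFP-only cells, 19 of 61 were higher and 6 lower, where 29.6% of all genes were called, 17.8% higher and 11.7% lower. After rescaling to a common median the *fli1a*:EGFP counts were 15 and 8, and the share of all genes was not computed after rescaling. Higher than in both populations were 17 of 61 members (27.9%, against 8.98% of all genes), and lower than in both were 4 (6.56%, against 6.87%).

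*grem2b*, a secreted Gremlin that binds BMPs, had 117 RPKM in double-positive cells, against 20.8 RPKM in *fli1a*:EGFP-only cells and 4.78 RPKM in *sox10*:DsRed-only cells. The other 3 control libraries, at 112 to 138 RPKM, were also far above both single-positive libraries. *nog2*, a Noggin, had 10.3 RPKM in double-positive cells, against 3.21 and 1.90 RPKM in the *fli1a*:EGFP-only and *sox10*:DsRed-only cells. *inhbaa*, which encodes an activin subunit, had 4.07 RPKM in double-positive cells, against 1.07 and 0.339 RPKM in the same populations. All 3 genes kept at least a 1.5-fold difference from both populations when any of the 4 control libraries stood for the double-positive cells.

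Among receptors, *bmpr1aa*, *bmpr1ab*, *bmpr1ba*, both entries of *bmpr1bb* and the type II receptor *bmpr2b* were higher than in both single-positive populations. These encode BMP receptors, and over *sox10*:DsRed-only cells *bmpr1ab* was the furthest apart, with 27.6 RPKM in double-positive cells against 10.4 RPKM in *fli1a*:EGFP-only and 5.33 RPKM in *sox10*:DsRed-only cells. The ligands *bmp5*, *gdf6a*, *gdf10a*, *gdf11* and *tgfb2*, and *fsta*, *smad6a* and *id3*, complete the list. With the *jag1b*+/+ siblings in place of the wild types, *tgfb2* was no longer higher than in *fli1a*:EGFP-only cells and turned to a log2 fold of -0.58. When all 4 control libraries had to be above both populations, 13 of 61 members (21.3%) remained, against 3.9% of all genes, and *bmpr1ab*, *bmpr2b*, *gdf6a* and *tgfb2* were lost.

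**Figure D2:**
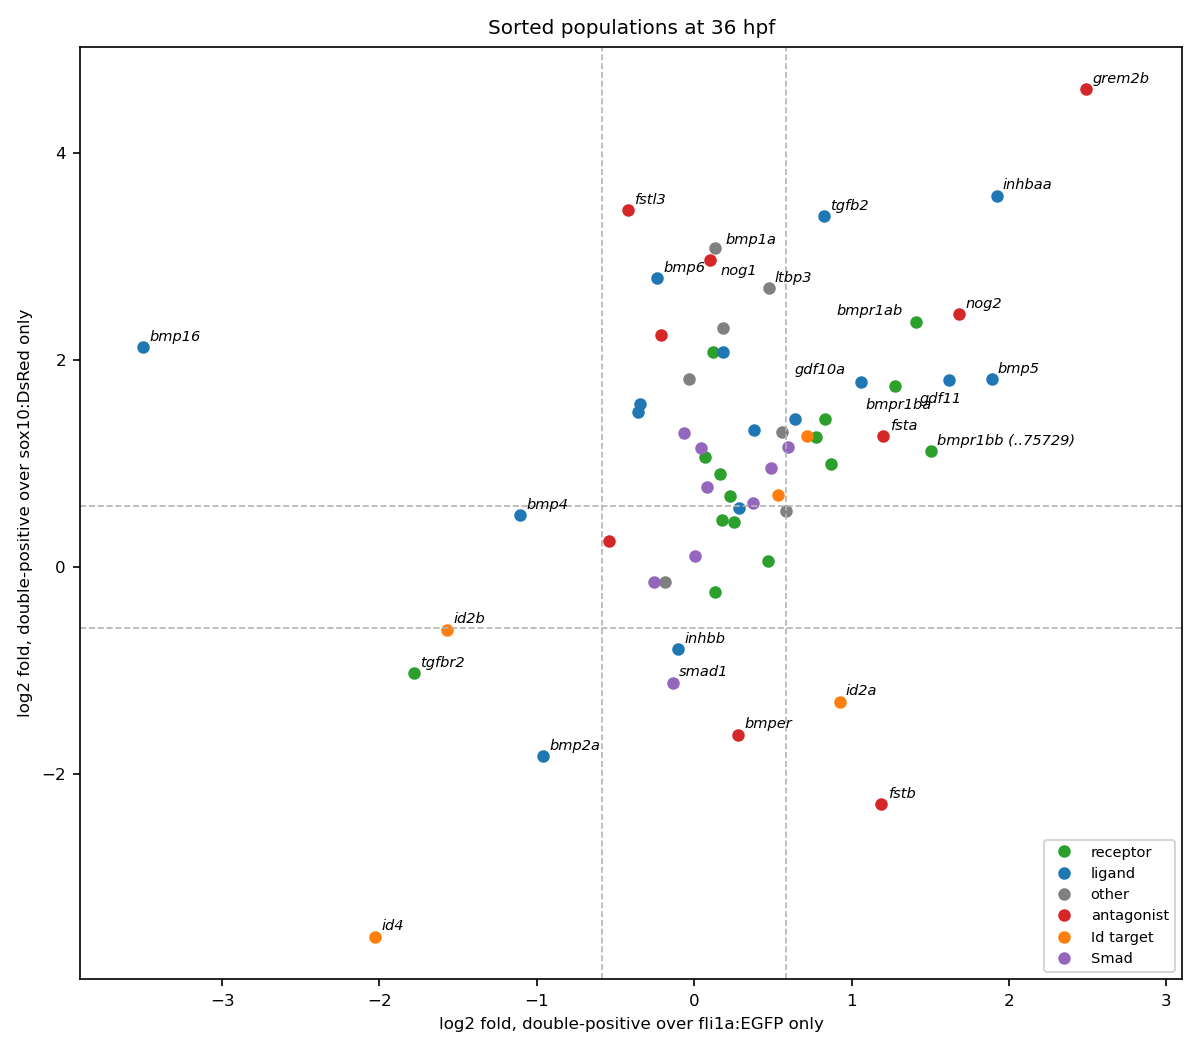
Log2 fold of wild-type double-positive cells at 36 hpf over *fli1a*:EGFP-only cells (x axis) and over *sox10*:DsRed-only cells (y axis) for the members tested, coloured by role, with dashed lines at 1.5-fold. *grem2b* lies furthest to the upper right (2.49 and 4.61), and *id4* to the lower left (-2.03 and -3.57).

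Other members were higher in both single-positive populations than in double-positive cells. Arch NCC markers summed to 248 RPKM in *fli1a*:EGFP-only and 116 RPKM in *sox10*:DsRed-only cells, against 724 RPKM in double-positive cells. The single-positive populations therefore cannot be placed wholly outside the arches. *id4* had 1.02 RPKM in double-positive cells, against 4.15 RPKM in *fli1a*:EGFP-only and 12.1 RPKM in *sox10*:DsRed-only cells. The type II receptor *tgfbr2* had 3.77 RPKM in double-positive cells, against 13 and 7.69 RPKM in those populations. Together with *bmp2a*, both stayed at least 1.5-fold below the single-positive populations in all 4 control libraries. These are 3 of 61 members (4.92%), against 3.04% of all genes, and *id2b* was not among them. Its log2 fold over *sox10*:DsRed-only cells was -0.60 with the wild types and 0.0064 with the *jag1b*+/+ siblings, and *inhbb* turned likewise, at -0.79 and 0.0091.

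Some members separated the single-positive populations from each other. *bmp16* had 0.617 RPKM in double-positive cells, against 6.99 RPKM in *fli1a*:EGFP-only and 0.142 RPKM in *sox10*:DsRed-only cells. *fstb*, a Follistatin, had 3.84 RPKM in double-positive cells, against 1.68 RPKM in *fli1a*:EGFP-only and 18.8 RPKM in *sox10*:DsRed-only cells. *bmper*, a modulator of extracellular BMP, was likewise highest in *sox10*:DsRed-only cells (11.1 RPKM, against 3.61 in double-positive and 2.98 in *fli1a*:EGFP-only cells). *bmp4* was highest in *fli1a*:EGFP-only cells, at 17.0 RPKM, with 7.89 RPKM in double-positive cells.

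The wild-type time course followed arch NCCs as they turn to skeletal fates. From 20 to 28 hpf, 7 of 9 antagonists and 5 of 8 BMP and GDF ligands were higher and none of either was lower. From 28 to 36 hpf, 6 of 8 BMP and GDF ligands were higher and 1 was lower, while the antagonists divided into 4 higher and 4 lower. Of 10 type I receptors, 3 were higher in each step, with 2 lower in the second. Of 60 members, 32 were higher at 28 than at 20 hpf and 4 were lower, where 30.4% of all genes were called, 19.8% higher and 10.7% lower. Of 59 members, 27 were higher at 36 than at 28 hpf and 10 were lower, where 38.7% of all genes were called, 14.8% higher and 23.9% lower. The median log2 fold of all genes was 0.10 for the first step and -0.10 for the second, against 0.66 and 0.27 for members. Since 9 of the 11 double-positive libraries are from 36 hpf, the minimum level kept genes that are high at that stage more readily, for members and other genes alike. Markers of other cells also differed between the stages. At 20, 28 and 36 hpf, pigment and glia markers summed to 148, 69.1 and 5.47 RPKM, erythroid markers to 551, 3041 and 118 RPKM, muscle and heart markers to 8.50, 16.4 and 325 RPKM, and arch NCC markers to 273, 737 and 724 RPKM. Their part in the members' values was not tested.

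The BMP ligand genes *bmp2b* and *bmp4* were among the furthest apart. *bmp4* had 0.298 RPKM at 20 hpf, 3.11 at 28 hpf and 7.89 at 36 hpf in wild types, and 4.39 to 5.54 RPKM in the other 3 controls at 36 hpf. *bmp2b* had 0.583, 2.96 and 17.2 RPKM at 20, 28 and 36 hpf, and 6.40 to 8.02 RPKM in the other 3 controls. The wild-type 36 hpf library was the highest of the 4 controls for both, yet every control at 36 hpf exceeded the 28 hpf library.

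The type I receptor *bmpr1ba* had 2.29 RPKM at 20 hpf, 15.7 at 28 hpf and 25.3 at 36 hpf, with 22.2 to 31.1 RPKM in the other 3 controls. *inhbaa* had 0.275, 1.33 and 4.07 RPKM, and *tgfb2* had 0.494, 2.33 and 8.33 RPKM at the same stages. For *tgfb2* the other controls were lower, at 2.84 to 3.59 RPKM. All 4 control libraries at 36 hpf were at least 1.5-fold above the 20 hpf library for 33 of 59 members (55.9%), against 11.3% of all genes, and below it for 2 members, *smad1* and *tgfbr2* (3.39%, against 10.3%).

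Among Smads, the gain was on several branches. *smad6a*, an inhibitory Smad, had 6.56 RPKM at 20 hpf, 22.6 at 28 hpf and 18.6 at 36 hpf, and *smad3a* had 2.41, 8.73 and 7.23 RPKM. *smad1* went the other way, with 21.3, 13.4 and 12.0 RPKM. *smad5* held between 26.5 and 32.0 RPKM over the 3 stages.

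**Figure D3:**
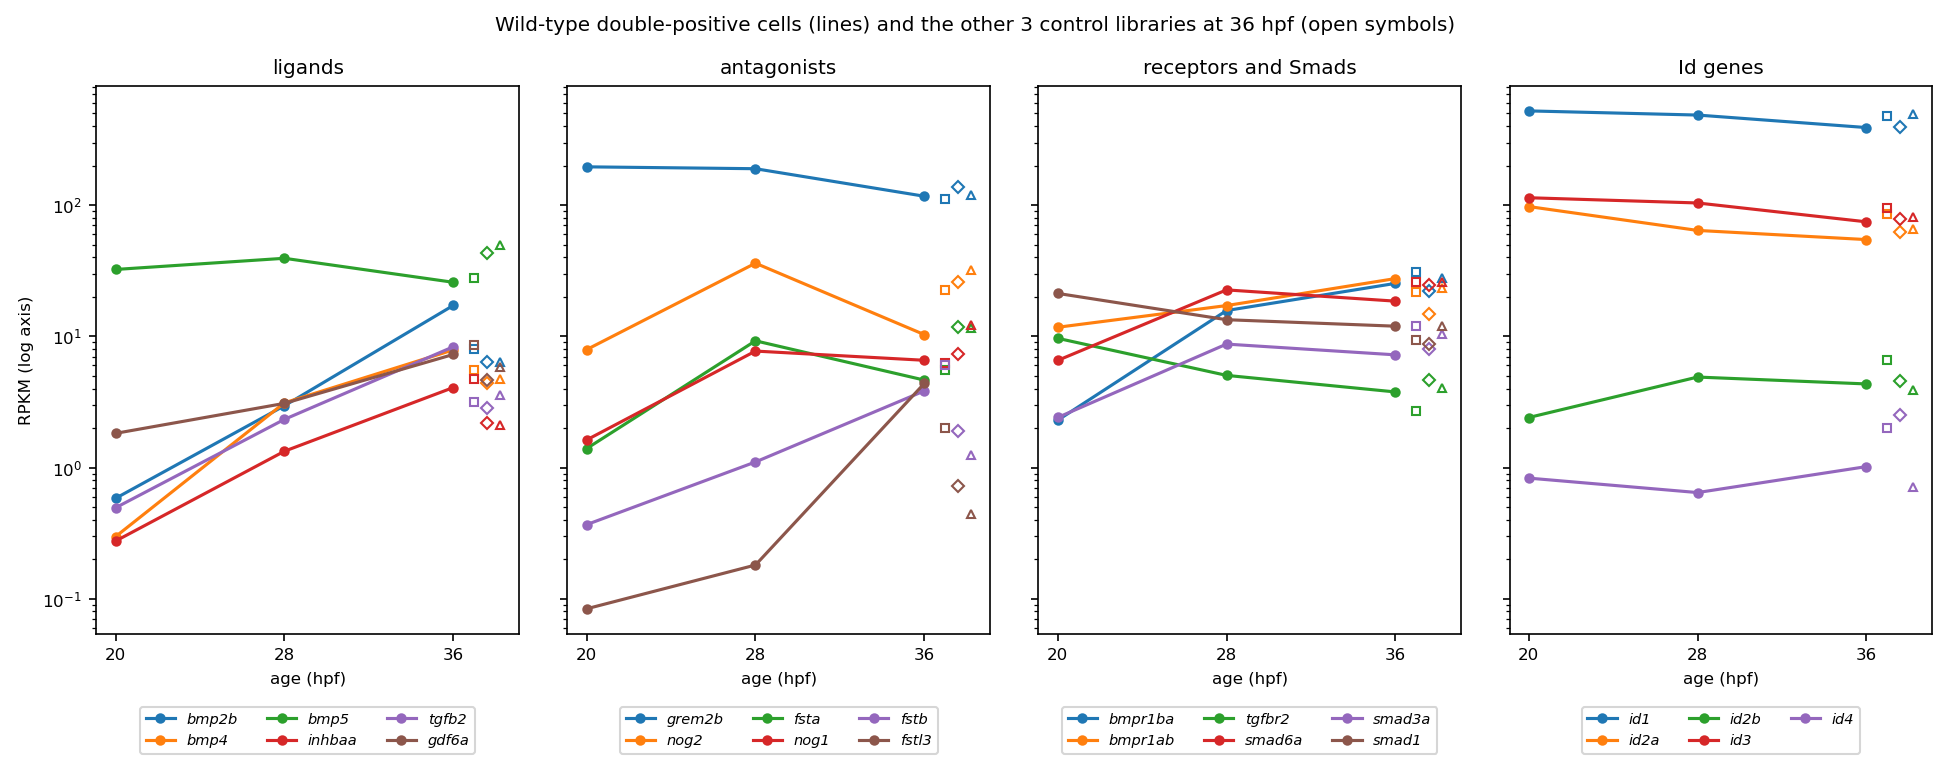
RPKM on a log axis at 20, 28 and 36 hpf in wild-type double-positive cells (filled circles and lines), with open squares for *jag1b*+/+ siblings, diamonds for *hsp70I*:Gal4 and triangles for *UAS*:Edn1 at 36 hpf, drawn beside 36 hpf. *bmp4* had 0.298, 3.11 and 7.89 RPKM at the 3 stages, while *id1* lay between 390 and 523 RPKM.

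Antagonists followed several courses. *nog2* had 7.93 RPKM at 20 hpf, 36.1 at 28 hpf and 10.3 at 36 hpf in wild types, but the other 3 controls had 22.4 to 31.8 RPKM. *fsta* likewise had 1.40, 9.25 and 4.64 RPKM at the 3 stages, with 5.51 to 11.7 RPKM in the other controls. With the *jag1b*+/+ siblings in place of the wild types, both declines from 28 to 36 hpf also passed 1.5-fold (ratios of 0.622 for *nog2* and 0.596 for *fsta*). In the heat-shocked *hsp70I*:Gal4 and *UAS*:Edn1 controls, *nog2* (25.9 and 31.8 RPKM) was below 28 hpf by less than 1.5-fold. *fsta* (11.7 RPKM in both) was above its 28 hpf level there.

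*grem2b* was already at 196 RPKM at 20 hpf, with 190 RPKM at 28 hpf and 117 RPKM at 36 hpf. *fstl3*, a follistatin-related antagonist, had 0.0839, 0.181 and 4.37 RPKM at the 3 stages. The other 3 controls had 0.440 to 2.01 RPKM of *fstl3*, so that the size of its last step depends on the library. Some members with a call from 28 to 36 hpf in wild types turned direction with the *jag1b*+/+ siblings, namely *acvr2b* (log2 fold -0.18), both *bmpr1bb* entries (0.46 and 0.74), *smad2* (0.0096) and *smad7* (0.091).

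The Id genes changed little or differed among themselves. *id1* had 523 RPKM at 20 hpf, 486 at 28 hpf and 390 at 36 hpf, and *id3* had 114, 104 and 74.7 RPKM. *id2a* had 97.6, 64.2 and 54.7 RPKM, while *id2b* had 2.41, 4.90 and 4.34 RPKM. Neither step reached 1.5-fold for *id1* or *id3*.

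*tgfb1b* stood apart from the other ligands, with 12.1 RPKM at 20 hpf, 3.64 at 28 hpf and 0 at 36 hpf in wild types, and 0.231 to 0.525 RPKM in the other 3 controls. Its mean of 1.71 RPKM passed the minimum through the 20 hpf value. Macrophage and neutrophil markers moved the same way, summing to 333, 196 and 5.45 RPKM at 20, 28 and 36 hpf, and their part in the *tgfb1b* values was not tested. The related *tgfb1a* had 2.54, 7.33 and 6.25 RPKM.

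Other genes of the pathway were followed in a list of 57 names, of which 34 entries had a mean of at least 1 RPKM. From 20 to 28 hpf, 22 of these 34 were higher and 0 were lower (19.8% and 10.7% of all genes). All 8 genes listed as BMP-responsive, among them *hand2* and the Msx genes *msxc* and *msxe*, were higher at 28 hpf. Of these, *hand2*, *prrx1a* and *prrx1b* are also on the list of arch NCC markers. Those markers summed to 273 RPKM at 20 hpf and 737 RPKM at 28 hpf, and the part of arch NCC content in these values was not tested. From 28 to 36 hpf, 12 of 34 were higher and 2 lower (14.8% and 23.9% of all genes).

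For loss of Edn1, *edn1* mutants were set against wild types at 36 hpf. The antagonists *nog2* and *fsta*, the activin subunit *inhbb*, both *bmpr1bb* entries and the protease *bmp1a* were lower in mutants than in any control. *smad3a* and *smad5* were higher than in any control. Of the other Smad genes, *smad7* was below the range, and *smad1* and *smad6b* were above it only before rescaling. Of 59 members, 12 were higher and 13 lower, where 35% of all genes were called, 24.6% higher and 10.4% lower. Outside the range of the 4 controls were 11 higher (18.6%, against 20.4% of all genes) and 10 lower (16.9%, against 7.86% of all genes). The share of members higher was thus not above that of all genes. All genes had a median log2 fold of 0.23 in this comparison, before rescaling. After libraries were rescaled to a common median, 5 members were higher and 15 lower, with 5 and 13 outside the range. Of the 21 members outside it before, 15 kept their call. The shares of all genes were not computed after rescaling.

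*nog2* had 2.25 RPKM in *edn1* mutants, against 10.3 in wild types, 22.4 in *jag1b*+/+ siblings, 25.9 in *hsp70I*:Gal4 and 31.8 in *UAS*:Edn1 controls. The mutant value was below all 4 controls, and with its own control the log2 fold was -2.20. *inhbb* had 1.34 RPKM in mutants, against 4.46, 7.78, 5.55 and 5.62 RPKM in the wild types, siblings, *hsp70I*:Gal4 and *UAS*:Edn1 controls (log2 fold -1.74). *fsta* had 2.0 RPKM in mutants, against 4.64, 5.51, 11.7 and 11.7 RPKM in the same controls (log2 fold -1.22).

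The largest fold was that of *bmp1a*, a matrix protease related to Tolloid that is not itself a BMP ligand. It had 0.224 RPKM in mutants, against 2.04 in wild types, 1.83 in siblings, 1.26 in *hsp70I*:Gal4 and 1.08 in *UAS*:Edn1 controls (log2 fold -3.18). From reads recovered from the RPKM steps, the counting interval of that ratio was 0.0727 to 0.161 (95%, Clopper-Pearson), which covers counting error only. The *bmpr1bb* entry ENSDARG00000102742 had 0.914 RPKM in mutants, against 2.46 to 9.48 RPKM in controls. *tgfb3* had 17.6 RPKM, against 18.9 to 30.1 RPKM, and *smad7* had 5.38 RPKM, against 8.25 to 24.6 RPKM, so that *tgfb3* lay close below the lowest control and *smad7* was 1.53-fold below it. *tgfbr2* and *ltbp1* (ENSDARG00000056922) were the other members below the range.

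*smad5*, a BMP-side Smad, was higher, with 52.1 RPKM in mutants against 27 in wild types, 26.5 in siblings, 25.2 in *hsp70I*:Gal4 and 29.3 in *UAS*:Edn1 controls. Its log2 fold was 0.95, or 0.72 above the median of all genes. *smad3a* had 15.6 RPKM in mutants, against 7.23 to 12.0 RPKM in controls, and *fstb* had 8.47 RPKM, against 1.24 to 6.01 RPKM. After rescaling, *smad3a* exceeded the siblings only barely. *ltbp3*, which binds latent TGF-beta, and *bmp2k* also stayed above the range after rescaling. The calls of *acvr2aa*, *bmpr1ab*, *fstl1b*, *gdf10a*, *smad1* and *smad6b* did not. *fstl1b*, for example, had 226 RPKM in mutants against 91.6 to 129 RPKM in controls, a log2 fold of 0.81 or 0.58 above the median.

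No Id gene reached 1.5-fold in *edn1* mutants, although *id2a* did after rescaling. *id1* had 382 RPKM in mutants, against 390 RPKM in wild types and 392 to 497 RPKM in the other controls. *id2a* had 36.9 RPKM against 54.7 RPKM in wild types, the lowest control. *grem2b* had 99.7 RPKM in mutants, against 117 RPKM in wild types and 112 to 138 RPKM in the other controls, below all 4 but without a call. Of the 34 other pathway genes, 7 were higher and 6 lower outside the control range (20.4% and 7.86% of all genes). The lower ones included the TGF-beta-responsive matrix genes *ctgfb* (0.877 RPKM in mutants, against 10.4 to 27.1 RPKM in controls) and *ctgfa* (9.28 RPKM, against 36.0 to 49.1 RPKM). Of the BMP-responsive genes, 3 of 8 were higher (*msxc*, *prrx1b*, *tbx2a*) and 3 of 8 lower, *hand2* and *msxe* among them. The calls of these 34 genes rest on values as deposited and were not repeated after rescaling, where all genes had a median log2 fold of 0.23. Muscle and heart markers summed to 80 RPKM in mutants and 325 RPKM in wild types, and endothelial markers to 34.9 and 21.6 RPKM, and their part in these values was not tested.

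Gain of Edn1 was measured against *hsp70I*:Gal4 controls. With Edn1 overexpression *nog2*, *inhbb*, *bmpr1ba* and *grem2b* were higher than in every control, and the ligand genes *bmp2b*, *bmp4* and *inhbaa* were lower than in every control. Of 60 members, 4 were higher and 4 lower, where 12.6% of all genes were called, 5.01% higher and 7.56% lower. The 4 higher members and 3 of the 4 lower ones lay outside the control range (6.79% of all genes in either direction, 2.79% higher and 4% lower). After rescaling, 5 were higher and 2 lower, all outside the range, without a rescaled share of all genes. With *UAS*:Edn1 as the control 16 members were called in place of 8 (9.16% of all genes). Erythroid markers summed to 101 RPKM with Edn1 overexpression and 1213 RPKM in *hsp70I*:Gal4, and their part in these values was not tested.

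*nog2* had 64.6 RPKM with Edn1 overexpression, against 25.9 RPKM in *hsp70I*:Gal4, 31.8 in *UAS*:Edn1, 22.4 in *jag1b*+/+ siblings and 10.3 in wild types (log2 fold 1.32 over its own control). *bmpr1ba* had 51.4 RPKM with Edn1, against 22.2, 27.9, 31.1 and 25.3 RPKM in the same controls (log2 fold 1.21). *inhbb* had 12.4 RPKM, against 5.55, 5.62, 7.78 and 4.46 RPKM (log2 fold 1.16). Each overexpression value stood above the highest control.

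*grem2b* had 234 RPKM with Edn1 overexpression, against 138 RPKM in *hsp70I*:Gal4, 119 in *UAS*:Edn1, 112 in siblings and 117 in wild types (log2 fold 0.76). It was thus 1.70-fold above its own control. *inhbaa* had 0.912 RPKM, against 2.17, 2.10, 4.71 and 4.07 RPKM in the same controls (log2 fold -1.25). *bmp2b* had 3.78 RPKM, against 6.40, 6.42, 8.02 and 17.2 RPKM (log2 fold -0.76), and *bmp4* had 2.93 RPKM, against 4.39, 4.73, 5.54 and 7.89 RPKM (log2 fold -0.59). *bmp4* lies at the threshold, and its call was lost after rescaling.

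**Figure D4:**
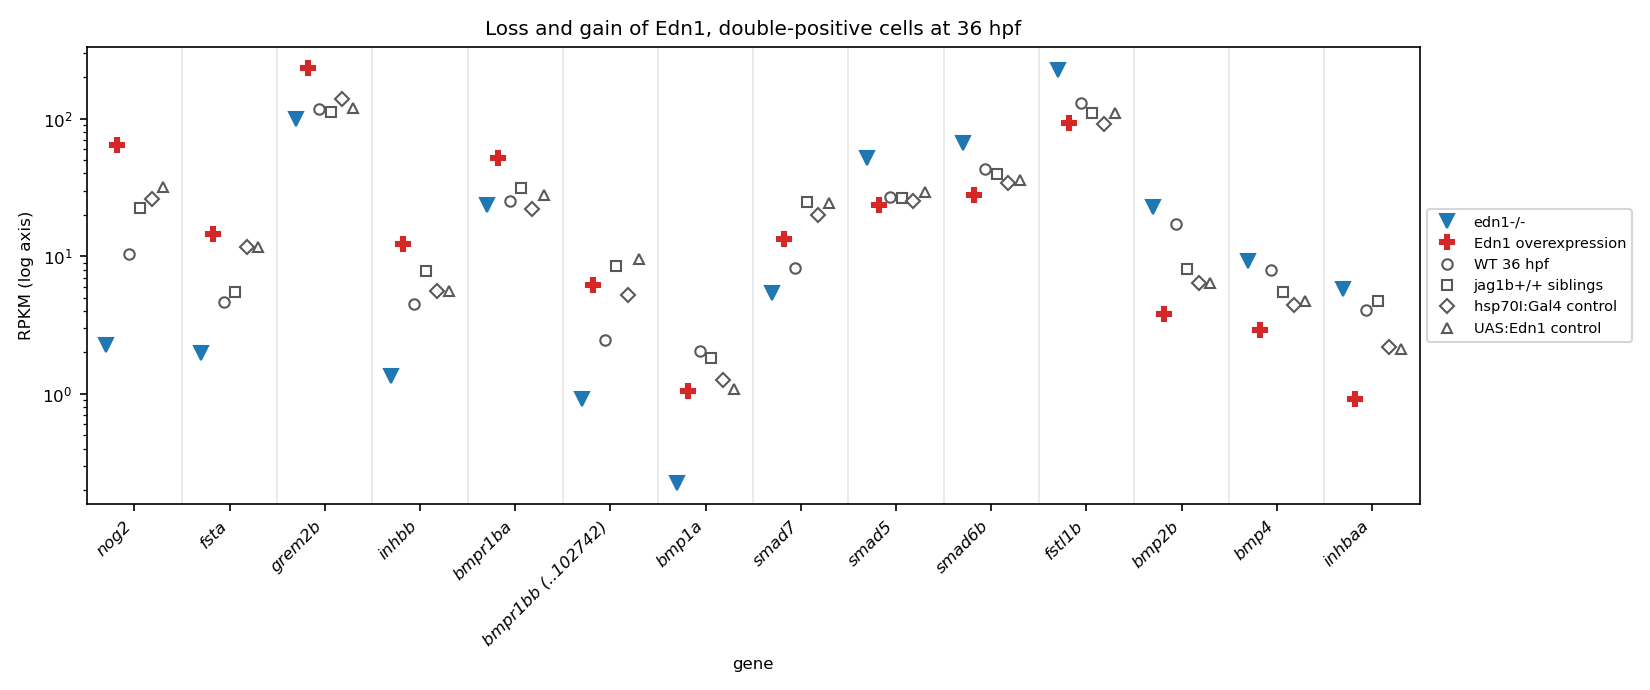
RPKM on a log axis of 14 members in *edn1*-/- mutants (blue triangles) and with Edn1 overexpression (red crosses), left of the 4 control libraries at 36 hpf (open grey symbols). *nog2* and *inhbb* lay below every control in mutants (2.25 and 1.34 RPKM) and above every control with Edn1 overexpression (64.6 and 12.4 RPKM).

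Set side by side, *nog2* and *inhbb* were the members called in both Edn1 comparisons and beyond the control range on opposite sides. Other members also lay beyond all 4 controls on opposite sides, but with a call in at most 1 comparison, such as *fsta* (2.0 RPKM in mutants and 14.5 RPKM with Edn1 overexpression), *grem2b* (99.7 and 234 RPKM) and *bmp2b* (22.6 and 3.78 RPKM). The comparisons have separate controls for their folds but share the 4 libraries of the range. The study's ratio rule, which divides the overexpression fold by the mutant fold, was made for genes enriched in arch NCCs and is applied here to all genes with the minimum mean level. By this rule, 11 of 59 members (18.6%) were Edn1-activated, against 8.82% of all genes, and 16 (27.1%) were Edn1-inhibited, against 29% of all genes. Among activated members the highest ratios were those of *nog2* (11.4) and *inhbb* (7.42), and among inhibited ones the lowest were those of *inhbaa* (0.296) and *ltbp3* (0.396). After rescaling, the Edn1-inhibited count fell to 9, but the share of all genes was not computed after rescaling.

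Of the other pathway genes, 2 were higher and 5 lower outside the control range with Edn1 overexpression (2.79% and 4% of all genes). *ctgfb* was again far from controls, at 146 RPKM with Edn1 overexpression against 22.9 RPKM in *hsp70I*:Gal4. The BMP pseudoreceptor genes *bambia* (19.2 RPKM, against 28.7 to 33.2 RPKM in controls) and *bambib* (4.07 RPKM, against 5.92 to 8.03 RPKM) were among the lower ones.

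Loss of Notch signaling was examined in *jag1b* mutants and with DBZ. In *jag1b* mutants the 2 Gremlin genes that reached the minimum level differed: *grem1b* was higher and *grem2b* lower than in any control. Of 60 members, 1 was higher and 3 lower than in *jag1b*+/+ siblings, where 5.56% of all genes were called, 2.02% higher and 3.55% lower. The 2 Gremlin genes were the members outside the control range (3.33%, against 2.86% of all genes in either direction, 0.641% higher and 2.22% lower). This count was near the share of all genes. With the wild types as control in place of the siblings, 20 of 59 members were called (32.3% of all genes). Epidermal markers summed to 8.05 RPKM in *jag1b* mutants and 73.0 RPKM in siblings, and their part in these values was not tested.

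*grem1b* had 2.79 RPKM in *jag1b* mutants, against 1.39 in siblings, 0.515 in wild types, 0.843 in *hsp70I*:Gal4 and 0.855 in *UAS*:Edn1 controls. Its ratio to siblings was 2.01, with a counting interval of 1.67 to 2.43 (95%, Clopper-Pearson), which covers counting error only. *grem1b* passed the minimum of 1 RPKM narrowly, with a mean of 1.15 RPKM. Its high value in *jag1b* mutants helped it to pass, so its call is not independent of the minimum. *grem2b* had 64.5 RPKM in mutants, against 112, 117, 138 and 119 RPKM in the same controls, the lowest of the 11 double-positive libraries. The other called members, *fstl3* and *id4*, lay within the control range.

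With DBZ a wider set of members was higher than in wild types. *grem1b*, *smad7*, *fstb*, *id2b*, *nog1*, *inhbaa* and *bmp7b* were above every control. Of 59 members, 17 were higher and 7 lower, where 29% of all genes were called, 13.9% higher and 15.1% lower. Outside the control range were 15 higher (25.4%, against 7.16% of all genes) and 1 lower (9.07% of all genes), *tgfbrap1*. The 15 include both *bmpr1bb* entries. For several of the 15, *smad2* and *smad7* among them, wild types were the lowest of the 4 controls. With siblings as the control in place of wild types, 16 members were called in place of 24, without a share of all genes. The *edn1* mutant and DBZ comparisons share the wild-type 36 hpf library as control, and all genes had a median log2 fold of -0.07 with DBZ.

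*grem1b* had 2.64 RPKM with DBZ, against 0.515 in wild types, 1.39 in siblings, 0.843 in *hsp70I*:Gal4 and 0.855 in *UAS*:Edn1 controls. The highest of these controls was that of the siblings, and *grem1b* with DBZ exceeded it by a ratio of 1.91. *smad7* had 35.1 RPKM with DBZ, against 8.25, 24.6, 20.1 and 24.5 RPKM in the same controls, so that its 4.25-fold difference from wild types was 1.42-fold over the highest control. *fstb* had 14.5 RPKM, against 3.84, 6.01, 1.89 and 1.24 RPKM.

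*id2b* had 10.7 RPKM with DBZ, against 4.34 in wild types, 6.63 in siblings, 4.55 in *hsp70I*:Gal4 and 3.90 in *UAS*:Edn1 controls. The ligand *bmp7b* had 10.6 RPKM, against 5.45, 4.24, 2.77 and 3.00 RPKM. *inhbaa* had 7.82 RPKM, against 4.07, 4.71, 2.17 and 2.10 RPKM, and *nog1* had 14.9 RPKM, against 6.57, 6.28, 7.36 and 12.2 RPKM. Of the 3 values, that of *nog1* lay nearest to a control. *inhbb*, *nog3*, *smad2*, *smad3a*, *smad6a*, *smad9* and both *bmpr1bb* entries were the further members above the range. For *smad3a* the margin was small (12.1 RPKM with DBZ, against 12.0 RPKM in siblings).

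*grem2b* had 80.5 RPKM with DBZ, below all 4 controls, but its 1.45-fold difference from wild types did not reach the threshold. With gain of Notch signaling in NICD embryos it was not higher, at 137 RPKM against 138 RPKM in *hsp70I*:Gal4 and within the control range. Arch NCC markers summed to 411 RPKM with NICD and 715 to 881 RPKM in controls, and their part in this value was not tested. Of the other pathway genes, 7 were higher and 1 lower outside the range with DBZ (7.16% and 9.07% of all genes). *ctgfa* had 82.4 RPKM with DBZ against 36.0 to 49.1 RPKM in controls. *tob1b*, *skia* and *skilb*, which encode inhibitors of Smad-driven transcription, were also higher. The summed epidermal markers were 87.1 RPKM with DBZ and 26.8 RPKM in wild types, and their part in these values was not tested.

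Gain of Notch signaling was measured in NICD embryos against *hsp70I*:Gal4 controls. *fstl3*, *grem1b*, *id2b*, *fstl1a*, *inhbaa* and *bmpr1ba* were lower than in any control, and *bmp5*, *gdf10a*, *bmpr1aa*, *fstb*, *smad1* and *tgfbr2* were higher. Of 60 members, 13 were higher and 11 lower, where 23.4% of all genes were called, 16.2% higher and 7.17% lower. Outside the control range were 9 higher (15.0%, against 12.4% of all genes) and 10 lower (16.7%, against 4.76% of all genes). All genes had a median log2 fold of 0.11.

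The NICD and Edn1 overexpression comparisons share *hsp70I*:Gal4 as control. The NICD library also differed in cell type markers. The pigment and glia markers summed to 125 RPKM with NICD and to 5.47 to 30 RPKM in the 4 controls, with *sox10* at 73.4 RPKM against 3.12 to 16.4 RPKM. Arch NCC markers summed to 411 RPKM with NICD and to 715 to 881 RPKM in controls. The arch markers did not move together: *dlx5a* had 13.9 RPKM with NICD and 86.6 RPKM in *hsp70I*:Gal4, but *prrx1a* had 80.3 and 82.5 RPKM. Whether the sorted cells differed, and the part of this in the values below, was not tested.

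*grem1b* had 0.210 RPKM with NICD, against 0.843 in *hsp70I*:Gal4, 0.855 in *UAS*:Edn1, 1.39 in siblings and 0.515 in wild types (log2 fold -2.01). *id2b* had 1.23 RPKM with NICD, against 4.55, 3.90, 6.63 and 4.34 RPKM in the same controls (log2 fold -1.88). Both lay on the other side of the control range with DBZ. *fstl3* had 0.119 RPKM, against 0.729, 0.440, 2.01 and 4.37 RPKM, a ratio to its own control of 0.163 with a counting interval of 0.0674 to 0.341 (95%, Clopper-Pearson).

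*bmpr1ba* had 12.9 RPKM with NICD, against 22.2 in *hsp70I*:Gal4, 27.9 in *UAS*:Edn1, 31.1 in siblings and 25.3 in wild types. It was the lowest of the double-positive libraries at 36 hpf, and Edn1 overexpression gave the highest. The type I receptors did not move together. *bmpr1aa* was above the range, at 32.1 RPKM with NICD against 17.9 to 26.3 RPKM in controls. Of 10 type I receptors, 5 were higher and 2 lower than in *hsp70I*:Gal4, with 3 and 2 outside the range. *smad3a* had 4.77 RPKM, against 7.97, 10.4, 12.0 and 7.23 RPKM, and *inhbaa* had 1.19 RPKM, against 2.17, 2.10, 4.71 and 4.07 RPKM. *grem1b*, *id2b*, *inhbaa* and *smad3a* were called in both comparisons, with the DBZ library above and the NICD library below all 4 controls, but the *smad3a* call with DBZ fell within the range after rescaling. Other members lay on the same sides without both calls, such as *bmpr1ba* (33.8 RPKM with DBZ and 12.9 RPKM with NICD).

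*bmp5* had 80 RPKM with NICD, against 43.0 in *hsp70I*:Gal4, 49.7 in *UAS*:Edn1, 27.8 in siblings and 25.8 in wild types (log2 fold 0.89). *gdf10a* had 49.9 RPKM, against 26.4, 35.5, 30.5 and 25.9 RPKM in the same controls (log2 fold 0.92). These abundant ligand genes were thus highest of all 13 libraries with NICD. *tgfbr2* had 9.79 RPKM with NICD, against 2.71 to 4.64 RPKM in controls, and *smad1* had 18.1 RPKM, against 8.78 to 12.0 RPKM. *tgfbr2* and *smad1* were also higher in *sox10*:DsRed-only cells (7.69 and 25.9 RPKM) and at 20 hpf (9.67 and 21.3 RPKM) than in the controls.

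*fstb* was above the control range both with DBZ and with NICD. It had 6.91 RPKM with NICD, against 1.89 in *hsp70I*:Gal4, 1.24 in *UAS*:Edn1, 6.01 in siblings and 3.84 in wild types. The NICD value was close to that of siblings and 3.65-fold above its own control. *nog1* and both *bmpr1bb* entries were likewise above the range in both libraries, but the *bmpr1bb* calls with NICD were lost once libraries were rescaled.

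**Figure D5:**
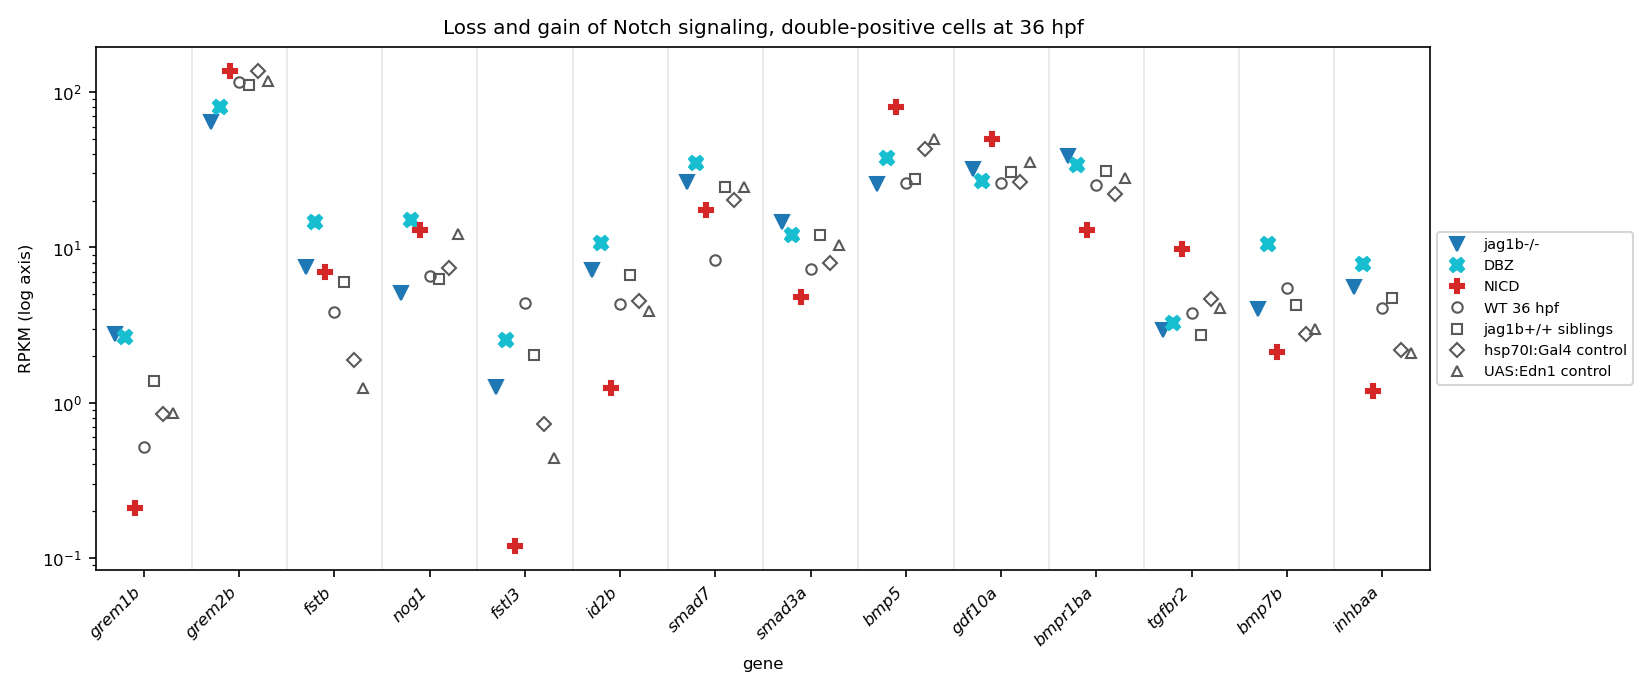
RPKM on a log axis of 14 members in *jag1b*-/- mutants (blue triangles), with DBZ (cyan) and with NICD (red crosses), left of the 4 control libraries at 36 hpf (open grey symbols). *grem1b* and *id2b* lay above every control with DBZ (2.64 and 10.7 RPKM) and below every control with NICD (0.210 and 1.23 RPKM).

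By the ratio rule of the study, refined with DBZ, 9 of 59 members (15.3%) were Notch-activated, against 14.5% of all genes, and 7 (11.9%) were Notch-inhibited, against 4.26% of all genes. The Notch-inhibited members were *bmp1a*, *bmpr1ba*, *grem1b*, *id2b*, *inhbaa*, *smad3a* and *tgfbr1b*. *bmpr1ba* was the one of these that was also Edn1-activated, while *inhbaa* and *smad3a* were also Edn1-inhibited. After rescaling, the Notch-activated count fell to 5, again without a rescaled share of all genes.

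Of the other pathway genes, 3 were higher and 9 lower outside the range with NICD (12.4% and 4.76% of all genes). Of the 8 BMP-responsive genes, 4 were lower and 0 higher outside the range. The lower ones included *hand2* (10.04 RPKM with NICD, against 73.0 to 116 RPKM in controls), *msxe* (3.09 RPKM, against 10.9 to 14.3 RPKM) and *tbx2a* (7.72 RPKM, against 12.95 to 16.6 RPKM). The other 4 had no call, and of these *tbx2b* lay above the controls (54.4 RPKM, against 36.1 to 46.9 RPKM). *sost*, which encodes a secreted inhibitor related to the Gremlins, was higher at 21.1 RPKM against 6.59 to 9.01 RPKM in controls.

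The Id genes gave a mixed readout over all perturbations. *id1* ran between 382 RPKM in *edn1* mutants and 588 RPKM with Edn1 overexpression, against 390 to 497 RPKM in controls, and reached 1.5-fold from its own control in none of the 5 perturbed libraries, although it did with Edn1 overexpression once libraries were rescaled. *id3* ran between 66.6 RPKM in *edn1* mutants and 98.3 RPKM with Edn1 overexpression, against 74.7 to 94.8 RPKM in controls. Both thus passed the controls on either side without a call. *id2b* was the Id gene with a call outside the control range, with DBZ and with NICD.

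The control libraries set the limit of these comparisons. *jag1b*+/+ siblings and wild types, both without heat shock, differed at least 1.5-fold for 21 of 59 members (35.6%, against 29.6% of all genes). The heat-shocked pair, *UAS*:Edn1 and *hsp70I*:Gal4, differed for 10 of 60 members (16.7%, against 15.5% of all genes), 6 of them higher (8.77% of all genes) and 4 lower (6.78%) in *UAS*:Edn1. The widest gaps of the first pair were in *bmp6* (1.87 RPKM in siblings, 6.61 in wild types), *bmpr1bb* entry ENSDARG00000102742 (8.55 and 2.46 RPKM) and *smad7* (24.6 and 8.25 RPKM).

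Both heat-shocked controls were higher than both unshocked ones for *bmp5* and *fsta*, and lower for *bmper*, *fstb*, *fstl3*, *inhbaa* and *nog3*. These are 2 and 5 of 59 members (3.39% and 8.47%), against 2.11% and 1.62% of all genes. *fsta* had 11.7 and 11.7 RPKM in *hsp70I*:Gal4 and *UAS*:Edn1, against 4.64 RPKM in wild types and 5.51 RPKM in siblings. *nog3* had 0.906 and 0.975 RPKM in the heat-shocked controls, against 2.405 and 5.15 RPKM in wild types and siblings. Muscle and heart markers summed to 15.3 and 5.77 RPKM in the heat-shocked controls, against 325 and 95.5 RPKM in the unshocked ones, and their part in these values was not tested.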

How the data were processed

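Cells were sorted from dissociated zebrafish embryos, and cDNA libraries were sequenced as 50-bp or 75-bp paired-end reads on 2 kinds of machine; which library ran on which is not given in the sources used here. The authors aligned reads to GRCz10 with TopHat 2, assigned them to Ensembl release 80 genes in Partek and deposited RPKM values. All 13 columns were mapped to libraries by their labels.

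RPKM values were used as deposited, and folds are ratios of RPKM in Python 3.11.15 (numpy 2.4.6, pandas 2.3.3, scipy 1.17.1, matplotlib 3.10.9). Genes needed a mean of at least 1 RPKM over double-positive libraries (over all 13 for the sorted populations) and no 0 in either library. Each condition has 1 library, so p-values were not computed and a call is a fold of at least 1.5. The share of all genes called is given for each comparison on values as deposited. Reads were recovered from RPKM steps (tolerance 0.06 of a read) for 64 members. Rescaling divided each library by its median ratio to the mean over libraries.

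Members, roles, lists and rules were chosen with earlier results of these data known. Genes named in full were called in a comparison, led their role, or are *grem2b*, *bmp4* and the Id genes. The comparisons of heat-shocked with unshocked controls, of all 4 controls with 20 hpf and single-positive cells, and of unshocked libraries were added after values were seen. Ratio rules used thresholds of 1.5 and 0.667, with NICD over DBZ folds of 1.25 and 0.8. In simulated data, every library had the mean level of the double-positive libraries with counting noise only, and 3-fold changes were planted in the NICD library. There, 198 of 200 planted changes were recovered and 72 of 11216 unchanged genes were called. Other spread between libraries was not simulated, so this gives no rate of false calls for the real libraries. No sequence is shown, since no sequence table was used. Some genes of the lists are not reported here.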

Additional observations from a re-analysis of the deposited data

How the results depend on the processing

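Each condition had 1 library, so a difference between libraries may be of the condition, the embryos or the preparation, and these cannot be told apart. No paired analysis was possible because each condition has 1 library and no replicate number links libraries. Of 101 alternative counts of members, 75 stayed within 1.5 times the count given in the report and 26 did not. Shares of all genes were not computed for these alternative counts, except with another control for Edn1 overexpression and *jag1b* mutants. Without a minimum RPKM the counts of called members were 39 for *fli1a*:EGFP-only cells (25 in the report), 59 from 28 to 36 hpf (37), 21 with Edn1 overexpression (8), 14 in *jag1b* mutants (4), 38 with DBZ (24), 37 with NICD (24), 22 between heat-shocked controls (10) and 39 between unshocked controls (21), and outside the control range 16 with Edn1 overexpression (7) and 5 in *jag1b* mutants (2). With a minimum of 3 RPKM they were 1 in *jag1b* mutants (1 outside the range) and 5 between heat-shocked controls, and with a pseudocount of 1 they were 2 and 4. With 2-fold as the threshold outside the range they were 8 in *edn1* mutants (21), 4 with Edn1 overexpression, 1 in *jag1b* mutants, 10 with DBZ (16) and 8 with NICD (19). With another control they were 38 for *fli1a*:EGFP-only cells (siblings), 16 with Edn1 overexpression (*UAS*:Edn1), 20 in *jag1b* mutants (wild types) and 11 Notch-inhibited members (*UAS*:Edn1, 7 in the report). Rescaling gave 9 Edn1-inhibited (16) and 5 Notch-activated members (9). It changed the split outside the range to 5 higher and 13 lower in *edn1* mutants (11 and 10) and to 5 and 2 with Edn1 overexpression (4 and 3), and that of all calls against *fli1a*:EGFP-only cells to 15 and 8 (19 and 6).

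Of 603 alternative values of single genes, 365 stayed within the counting interval or the spread between controls, 230 moved further and 8 changed direction, all 8 with *jag1b*+/+ siblings in place of wild types. These were *tgfb2* (log2 fold -0.58) against *fli1a*:EGFP-only cells, *id2b* (0.0064) and *inhbb* (0.0091) against *sox10*:DsRed-only cells, and *acvr2b* (-0.18), *bmpr1bb* (0.46 and 0.74), *smad2* (0.0096) and *smad7* (0.091) from 28 to 36 hpf. The cause was not tested.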

Other observations

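Some members below the mean of 1 RPKM in double-positive cells still differed between libraries. *gdf5*, a ligand of joints, had 0.714 RPKM in *edn1* mutants and 0.899 RPKM with DBZ, against 0.642 RPKM in wild types and 0.0527 to 0.373 RPKM in the other 3 controls. *bmp2a* had 2.3 RPKM with NICD, against 0.219 RPKM in *hsp70I*:Gal4 and 0.301 RPKM in *UAS*:Edn1, while wild types and siblings had 1.30 and 1.58 RPKM. *bmp16* had 1.81 RPKM with DBZ, against 0.328 to 0.617 RPKM in the 4 controls. These genes were picked after their values were seen, and the differences rest on 1 library each.

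The wild-type, *edn1* mutant and DBZ libraries were all at least 1.5-fold above both *jag1b* libraries for *bmp2b* and *bmp6* (2 of 59 members, 3.39%, against 2.95% of all genes), and below both for 0 members (0.977% of all genes). *bmp6* had 4.14 RPKM in *edn1* mutants and 2.93 RPKM with DBZ, against 6.61 RPKM in wild types, 1.43 RPKM in *jag1b* mutants and 1.87 RPKM in siblings.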
